A study of Homo sapiens with 16 samples.

Results

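The mitochondrial ribosomal protein genes are the protein-coding genes of RefSeq GRCh38 on chromosomes 1 to 22 and X whose symbol begins with MRPL or MRPS followed by a digit. The rule found 77 genes of 19974, and all 77 could be placed on a strand, as could 19630 of all genes. A strand is needed to place the transcription start site (TSS), taken as the 5′ end of the gene. Of the 77 genes, 51 encode proteins of the large subunit of the mitochondrial ribosome and 26 encode proteins of the small subunit.

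Mitochondria carry their own small genome and translate its few mRNAs, which encode core subunits of the respiratory chain, on ribosomes of their own. The ribosomal RNAs are made inside the organelle, whereas every protein of these ribosomes is encoded in the nucleus, translated in the cytosol and imported. Some of the proteins are homologues of bacterial ribosomal proteins and the others are particular to mitochondrial ribosomes. Acetylation of histone H3 at lysine 27 (H3K27ac) marks nucleosomes flanking active promoters and enhancers, so that a gene in use typically has an H3K27ac peak beside its TSS.

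Chromatin for H3K27ac ChIP-seq came from K562 cells, an established line of human chronic myelogenous leukemia with erythroid features. The amount of chromatin in a reaction is given as DNA_chrom, the DNA measured directly in the chromatin, and the titer is the antibody per DNA_chrom relative to the optimal ratio of 0.25 µg for 10 µg, which is titer 1. In the fixed arm every reaction received 0.25 µg of antibody, and the 7 libraries differed in DNA_chrom, which rose by doublings from 0.31 to 20 µg, and so in titer, which fell through 32, 16, 8, 4, 2, 1 and 0.5. In the normalized arm, 7 libraries were made from the same amounts, all at titer 1. Libraries are named by amount and titer, and 10-T1a of the fixed arm and 10-T1b of the normalized arm share both. Each condition was 1 library. Peaks were called against a separate input in each arm, and the effects of arm and input cannot be told apart. Within the fixed arm titer falls as DNA_chrom rises, and their parts can be told apart only with the normalized arm. A single line was used, and all chromatin came from fixed cells of that line. The 14 lists held 64083 to 82143 peaks at a q-value of at most 1%, and read depth is not contained in them. Of 10 genes fixed as K562 markers, including GATA1, KLF1 and HBG1, 10 had a peak within 5 kb of the TSS in all 14 lists. Of 9 markers of other lineages given here, 6 had none in any list and 3 had one in 2 to 5 lists.

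Almost every mitochondrial ribosomal protein gene carried H3K27ac at its promoter in every library. A peak lay within 5 kb of the TSS in all 14 lists for 74 of 77 genes (96.1%), against 51.8% of all protein-coding genes. All 26 small subunit genes and 48 of 51 large subunit genes were among them. The number of these genes with a peak was 74 in each of the lists of titer 32, 16, 8 and 4, 75 in 9 of the other lists and 76 in 20-T1. Over all genes this number was 11132, 11353, 11321 and 11443 as titer fell from 32 to 4, and 11174 to 11744 in the other lists. The mitochondrial ribosomal protein genes that lacked a peak in at least 1 list were MRPL45, MRPL23 and MRPL44.

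MRPL45 (chromosome 17, 38297168 to 38323211, plus strand) encodes a protein that lies at the exit of the nascent chain and holds the ribosome to the inner membrane. It had no peak in the 4 lists of titer 32, 16, 8 and 4. Its strongest peak had a fold enrichment, the deposited ratio of ChIP signal over local background, of 7.6, 6.4 and 8.3 at the remaining titers of 2, 1 and 0.5. The normalized libraries gave 5.7, 5.2, 7.3, 5.1, 5.1, 4.9 and 6.9 in order of rising DNA_chrom. The 4 lists of titer 4 and above were thus the 4 without a peak, and at the same 4 amounts the normalized lists had one. In the full deposited lists, down to a q-value of 5%, a peak was present in 11 lists. MRPL45 has a close pseudogene copy, and read pairs were kept where at least 1 end mapped to a single place, so its values are uncertain.

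MRPL23 (chromosome 11, 1947332 to 2014944, plus strand) encodes a protein of the exit tunnel. It had a peak only in 20-T1, with a fold enrichment of 4.0, a summit 4877 bp upstream of the TSS, and no peak within 1 kb of the TSS in any list. MRPL44 (chromosome 2, 223950854 to 223967714, plus strand), a large subunit protein with a ribonuclease III fold, had no peak in any list around the 5′ end of the gene. The start listed for it in the RefSeq promoter table lies 6609 bp further downstream, and a peak was found there in 14 of 14 lists. The fold enrichment there was 4.8 to 10.7 (median 7.6) with fixed antibody and 5.1 to 11.3 (median 7.5) with normalized antibody. With the RefSeq promoter starts, a use added after the values had been seen, 75 of 77 genes had a peak in all 14 lists. So did 10397 of all 19630 genes.

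Promoter sequences were taken from the RefSeq table of GRCh38.p14, which held 69 of the 77 genes. The 200 bases before the start of 8 genes are given 5′ to 3′ on the strand of the gene. These are examples from the named genes, so how often they hold a motif is not a measure for the 69. MRPL18 had one of the strongest promoter peaks, at chr6:159789612-159789811, plus strand. MRPL51 and MRPS18C, at chr12:6493263-6493462, minus strand, and chr4:83455858-83456057, plus strand, were among the genes with the largest slopes over titer. MRPL1 and MRPL48, at chr4:77862630-77862829 and chr11:73787674-73787873, both plus strand, had some of the largest differences between arms. MRPS21, at chr1:150293661-150293860, plus strand, had one of the largest slopes of covered length. MRPS31, at chr13:40771191-40771390, minus strand, had one of the weakest peaks, and MRPL45, at chr17:38296968-38297167, plus strand, was without a peak at high titer. Capitals mark exact matches, on either strand, to CCGGAAG (the core of the ETS family, to which the GABP factor belongs), CGCATGCG (a core of NRF1), AAGATGGCG (a core of YY1) and CCAAT (the box bound by NFY).
MRPL18: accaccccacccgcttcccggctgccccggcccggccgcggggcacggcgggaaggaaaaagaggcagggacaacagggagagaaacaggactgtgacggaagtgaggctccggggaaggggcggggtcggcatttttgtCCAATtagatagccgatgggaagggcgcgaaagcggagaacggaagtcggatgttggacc
MRPL51: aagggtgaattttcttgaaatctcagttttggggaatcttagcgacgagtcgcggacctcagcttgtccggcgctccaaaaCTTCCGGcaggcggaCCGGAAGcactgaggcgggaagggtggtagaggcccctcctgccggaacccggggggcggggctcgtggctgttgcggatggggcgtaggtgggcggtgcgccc
MRPS18C: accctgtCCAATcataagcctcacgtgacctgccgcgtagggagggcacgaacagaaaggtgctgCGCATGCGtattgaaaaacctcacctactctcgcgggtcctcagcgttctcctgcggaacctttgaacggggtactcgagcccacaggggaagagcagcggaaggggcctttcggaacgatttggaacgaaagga
MRPL1: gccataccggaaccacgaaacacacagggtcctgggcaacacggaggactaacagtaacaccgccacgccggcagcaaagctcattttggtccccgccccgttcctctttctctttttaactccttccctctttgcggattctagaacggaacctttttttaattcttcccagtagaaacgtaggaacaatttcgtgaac
MRPL48: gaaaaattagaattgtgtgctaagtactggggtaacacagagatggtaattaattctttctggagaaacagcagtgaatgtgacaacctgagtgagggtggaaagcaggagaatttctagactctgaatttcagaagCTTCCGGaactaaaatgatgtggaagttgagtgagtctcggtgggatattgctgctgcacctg
MRPS21: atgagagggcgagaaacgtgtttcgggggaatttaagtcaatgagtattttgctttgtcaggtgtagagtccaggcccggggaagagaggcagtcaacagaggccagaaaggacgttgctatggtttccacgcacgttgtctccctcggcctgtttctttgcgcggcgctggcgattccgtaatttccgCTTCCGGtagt
MRPS31: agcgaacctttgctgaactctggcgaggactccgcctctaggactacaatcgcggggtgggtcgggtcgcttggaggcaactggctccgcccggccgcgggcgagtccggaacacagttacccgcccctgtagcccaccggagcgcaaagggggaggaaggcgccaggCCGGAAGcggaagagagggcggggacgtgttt
MRPL45: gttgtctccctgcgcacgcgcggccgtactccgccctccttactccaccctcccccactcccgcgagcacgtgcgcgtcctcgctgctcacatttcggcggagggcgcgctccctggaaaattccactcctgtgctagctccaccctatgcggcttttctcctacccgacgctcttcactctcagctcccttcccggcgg

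The ETS core lay before the start of MRPL51, MRPL48, MRPS21 and MRPS31, the NRF1 core before MRPS18C, and a CCAAT box before MRPL18 and MRPS18C. None of these motifs was found in the printed bases of MRPL1 and MRPL45, which says only that these letters are not in this window. In windows of 300 bases, from 250 before to 50 after the start, the ETS core was found in 29 of 69 members (42.0%), in 21.6% of 8496 promoters of genes with a peak in all 14 lists and in 14.1% of all 15813 promoters. The YY1 core was found in 13 members (18.8%), against 4.50% and 2.69%, and in 10 of the 13 a match touched the 50 bases after the start. The NRF1 core was found in 3 members (4.35%), against 4.39% and 2.90%. The CCAAT box was found in 20 members (29.0%), against 37.6% and 36.4%. The GC box GGGCGG, a site of SP1, was found in 41 members (59.4%), against 71.6% and 58.3%. The TATA box TATAAA was found in 2 members (2.90%), against 5.50% and 9.75%. The member windows were less rich in CpG than those of other genes with a peak in all lists, with a median of 24 CpG dinucleotides and 60.3% GC against 27 and 65.3%. A match is a run of letters, no binding was measured, and motifs of this kind can overlap the GC box.

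**Figure D1:**
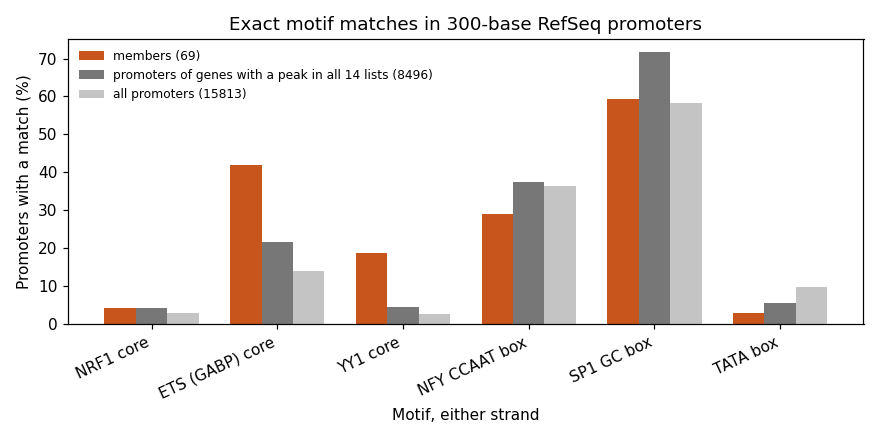
Share of 300-base RefSeq promoters with at least 1 exact match to each motif on either strand, in percent, for members (69), for genes with a peak in all 14 lists (8496) and for all promoters (15813). The members stand higher for the ETS core (42.0% against 21.6% and 14.1%) and the YY1 core (18.8% against 4.50% and 2.69%).

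The H3K27ac peaks of members with and without these motifs had similar medians. The 29 members with the ETS core had a median rank of 89.6, as a mean percentile of the strongest peak among all peaks of its list, and the 38 without it had 90.7. For the YY1 core the medians were 89.1 in 13 members and 90.3 in 54. No test of these differences was made. The motif windows were placed at the RefSeq promoter start and the peak windows at the 5′ end of the gene. These lie 1628 bp apart for MRPL24, 1597 bp for MRPL36, 378 bp for MRPL39 and 144 bp for MRPL14.

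Mitochondrial ribosomal protein promoters ranked high in each list, and about as high as other promoters with a peak in all lists. The mean percentile of the 74 members ranged from 74.4 to 99.0 with a median of 90, against a median of 90.2 for all 10176 such genes. It was 90 or above for 37 of 74 members (50%) and for 51.1% of all such genes. The median percentile of the members per list lay between 89.1 and 93.3, without a separation of the lists of high titer. Peaks covered a median of 2.64 kb within 5 kb of the TSS in members and 2.63 kb in all such genes.

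**Figure D2:**
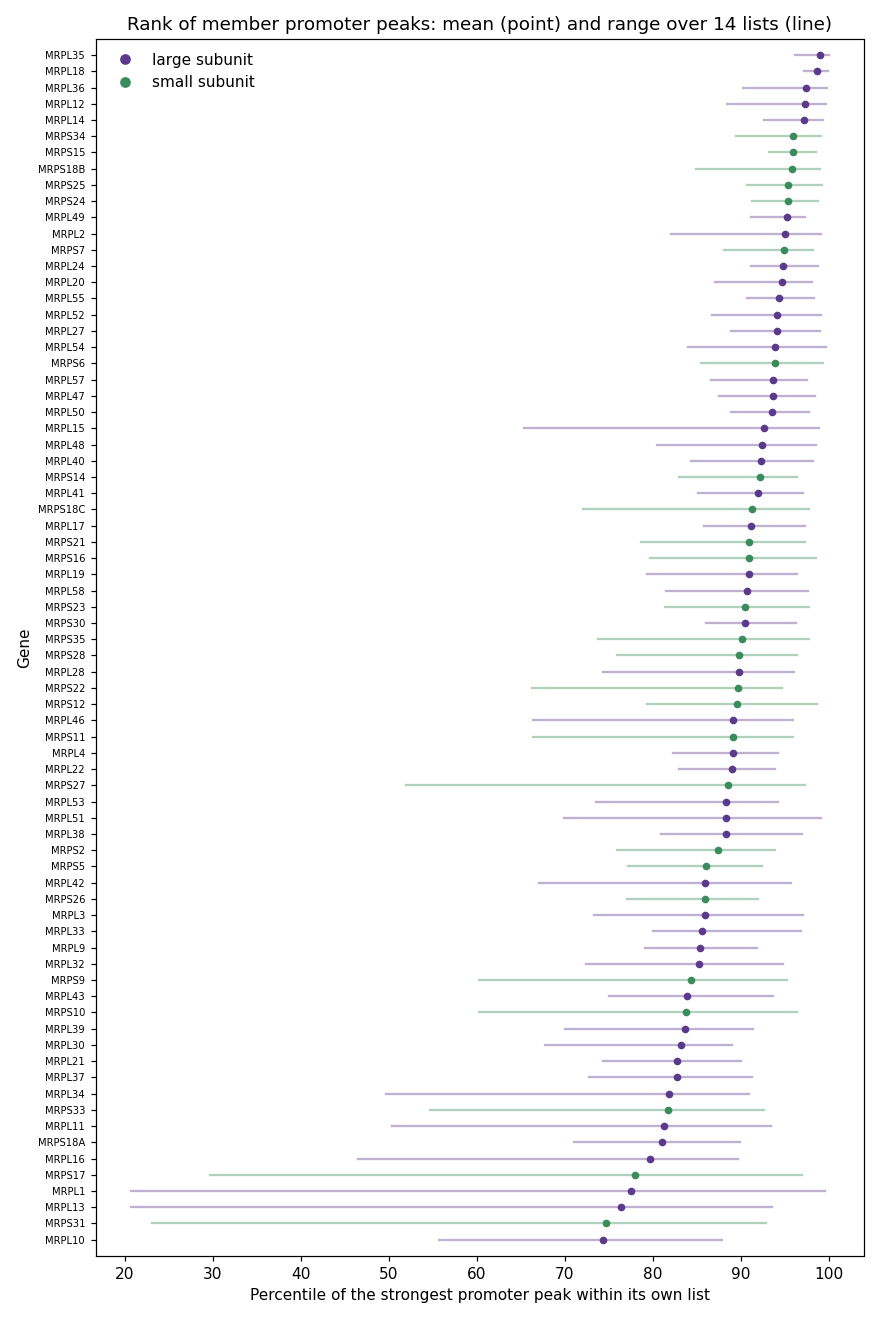
Percentile of the strongest promoter peak within its own list for the 74 members with a peak in all 14 lists, as the mean (point) and the range over the lists (line), for large and small subunit genes. The means run from 74.4 for MRPL10 to 99.0 for MRPL35, and the ranges widen towards the bottom of the plot.

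The 5 members of the highest rank all encode homologues of bacterial large subunit proteins. MRPL35 (chromosome 2, 86199433 to 86213794, plus strand) had a mean percentile of 99.0 ± 1.15 (SD over 14 lists), but in 11 of 14 lists the summit of its strongest peak lay 4123 to 4191 bp upstream of the TSS, and there the nearest TSS was that of IMMT, a protein of mitochondrial cristae. Within 1 kb of its own TSS, MRPL35 had a mean percentile of 94.5. MRPL18 (chromosome 6, 159789812 to 159798429, plus strand) had 98.7 ± 0.95, with fold enrichments from 9.2 to 23.1 with a median of 12.9 in the fixed arm and from 16.2 to 22.6 with a median of 20.1 with normalized antibody. All 5 lists of titer above 1 were below the normalized lists of the same amounts. MRPL36, MRPL12 and MRPL14 followed with 97.4, 97.2 and 97.1. MRPL12, whose product also binds the mitochondrial RNA polymerase, had values of 8.0 to 22.3 with fixed and 14.7 to 20.3 with normalized antibody.

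The 5 members of the lowest rank were MRPL10, MRPS31, MRPL13, MRPL1 and MRPS17, with mean percentiles of 74.4 ± 9.51, 74.6 ± 17.6, 76.4 ± 19.9, 77.5 ± 21.1 and 77.9 ± 18.7 (SD over 14 lists). The rank of the last 4 moved widely between lists. MRPS31 (chromosome 13, 40729128 to 40771190, minus strand) had fold enrichments of 4.8, 3.9, 5.2, 6.4, 5.7, 9.5 and 8.1 in the fixed arm and 9.8, 9.7, 12.5, 8.5, 7.7, 10.9 and 9.2 in the normalized arm, in order of rising DNA_chrom. The lists of titer above 1 lay below the matched normalized lists without overlap. MRPL10 (chromosome 17, 47823272 to 47831541, minus strand), a protein of the ribosomal stalk, ranged from 4.9 to 8.6 and from 5.5 to 12.0 in the fixed and normalized arms, and the arms overlapped. MRPS31 and MRPS17 have related copies elsewhere in the genome, so their values are uncertain in the way given for MRPL45.

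The strength of the promoter peaks moved with the titer. Across the 74 members the median fold enrichment in the fixed arm was 7.36, 8.07, 8.05, 9.62, 11.4, 12.5 and 13.4 as the titer fell from 32 to 0.5. In the normalized arm it lay between 11.1 and 13.0, with the highest value in 20-T1. The lists of titer 4 and above were thus the 4 lowest of the 14. The medians of all 10176 genes with a peak in all lists ran from 7.06 to 13.6 with fixed and from 11.1 to 13.6 with normalized antibody.

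**Figure D3:**
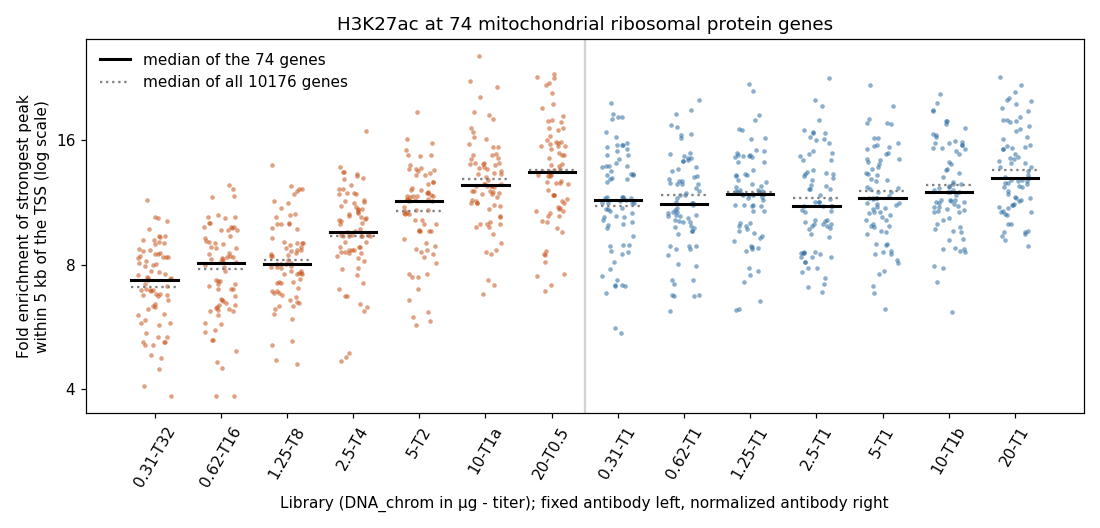
Fold enrichment (log scale) of the strongest peak within 5 kb of the TSS for each of the 74 members with a peak in all 14 lists, by library, with the median of the members (solid bar) and of all 10176 genes (dotted bar). The member median rises from 7.36 in 0.31-T32 to 13.4 in 20-T0.5 in the fixed arm and stays between 11.1 and 13.0 in the normalized arm.

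At matched amounts, the normalized list was higher than the list of titer 32 for 70 of 74 members, by a median of 0.65 on the log2 scale (SD over members 0.46). At titers 16, 8, 4 and 2 it was higher for 66, 68, 52 and 53 members, by medians of 0.54, 0.55, 0.25 and 0.10. Between 10-T1a and 10-T1b, which share amount and titer, the median difference was -0.11 with an SD of 0.40 over members, and 29 of 74 were higher in 10-T1b. This pair is the nearest to a replicate in the series, and it moved MRPS17 by -1.03 and MRPL1 by 1.13, so that a difference of 1 member between 2 lists carries a large error. In 22 of 74 members (29.7%) all 5 lists of titer above 1 were below all 5 matched normalized lists, against a background of 27% of all genes with a peak in all lists. The reverse was found for 0 members.

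A limma model of log2 fold enrichment with arm, log2 DNA_chrom and log2 titer was fitted to all 14 libraries and 10176 genes, with Benjamini-Hochberg adjustment over all of them. The titer slope was negative for 70 of 74 members, with a median of -0.13 per doubling of titer, and fell below an adjusted p of 0.05 for 27 members (36.5%), all with lower enrichment at higher titer, and 0 members were higher (0.118% of all genes). The background was 36.6% of all genes, with a median slope of -0.13, so the share of members was that of promoters in general. With each list centred on its median over the 10176 genes, which removes a change shared by these promoter peaks, 0 members and 11 of 10176 genes passed. An unadjusted p under 0.05 was found for 37 of 74 members and 5144 of 10176 genes before centring. After it, this held for 6 members and for 11.9% of all genes. The decline was thus shared with the strongest promoter peaks of other genes, and none beyond that shift was detected at these promoters. The median over all peaks of a list, promoter or not, lay between 4.62 and 5.02. It covers only peaks past the q-value threshold in that list, so it cannot show whether the same peaks weakened with titer. Without 0.31-T1, 13 members passed, with 22.4% of all genes. The paper describes the mapping results of all libraries as similar. In its values 0.31-T1 had the lowest share of uniquely mapped pairs and the lowest complexity, and a link to this count was not tested.

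The 8 members with the largest titer slopes among those that passed were MRPL15, MRPL2, MRPS18C, MRPL11, MRPL14, MRPL51, MRPL12 and MRPS17. MRPL15 (chromosome 8, 54135241 to 54148514, plus strand) had fold enrichments of 5.1, 8.2, 8.5, 8.5, 13.5, 13.2 and 15.5 in the fixed arm, as titer fell, and 16.8, 17.4, 18.4, 13.2, 18.1, 18.9 and 12.3 in the normalized arm. The 4 lists of highest titer were below every other list, and the slope was -0.29 ± 0.06 (SE) per doubling of titer (limma, adjusted p = 0.0041). MRPL2 (chromosome 6, 43054029 to 43059863, minus strand), a protein beside the catalytic centre of the large subunit, had 6.6, 6.5, 9.1, 10.5, 13.4, 18.7 and 17.9 in the fixed arm and 14.1 to 20.1 with a median of 16.7 in the normalized arm. Its slope was -0.27 ± 0.06 (limma, adjusted p = 0.0039), but the strongest peak was not the same one in all lists. Its summit was within 1 kb of the TSS in 7 lists, among them the 4 of titer 4 and above, and 6265 to 6462 bp downstream, nearest to the TSS of CUL7, in the other 7. Within 1 kb of the TSS the slope of MRPL2 was -0.09 (limma, adjusted p = 0.24). MRPL51 (chromosome 12, 6491886 to 6493262, minus strand) rose from 5.3 at titer 32 to 14 at titer 0.5 and ranged from 11.2 to 18.3 in the normalized arm. The lists of titer above 1 were all below the matched normalized lists, with a slope of -0.23 ± 0.06 (limma, adjusted p = 0.0099).

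The slopes of MRPS18C, MRPL11, MRPL14 and MRPL12 were -0.25, -0.24, -0.23 and -0.22. MRPS18C and MRPL12 had no overlap between the 5 lists of titer above 1 and the matched normalized lists, whereas MRPL11 and MRPL14 overlapped. MRPS17 (chromosome 7, 55951877 to 55956500, plus strand) was of another shape, with 4.1, 8.4, 4.6, 9.5, 13.7, 16.1 and 11.8 in the fixed arm and 6.7 to 9.9 (median 7.3) with normalized antibody. Its median over the 5 lists of titer above 1 was 8.4, against 7.2 in the matched normalized lists, so that its slope of -0.21 ± 0.08 (limma, adjusted p = 0.034) came with overlapping groups. The 4 members with a positive slope included MRPL10 (0.07) and MRPS35 (0.02), and none passed.

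**Figure D4:**
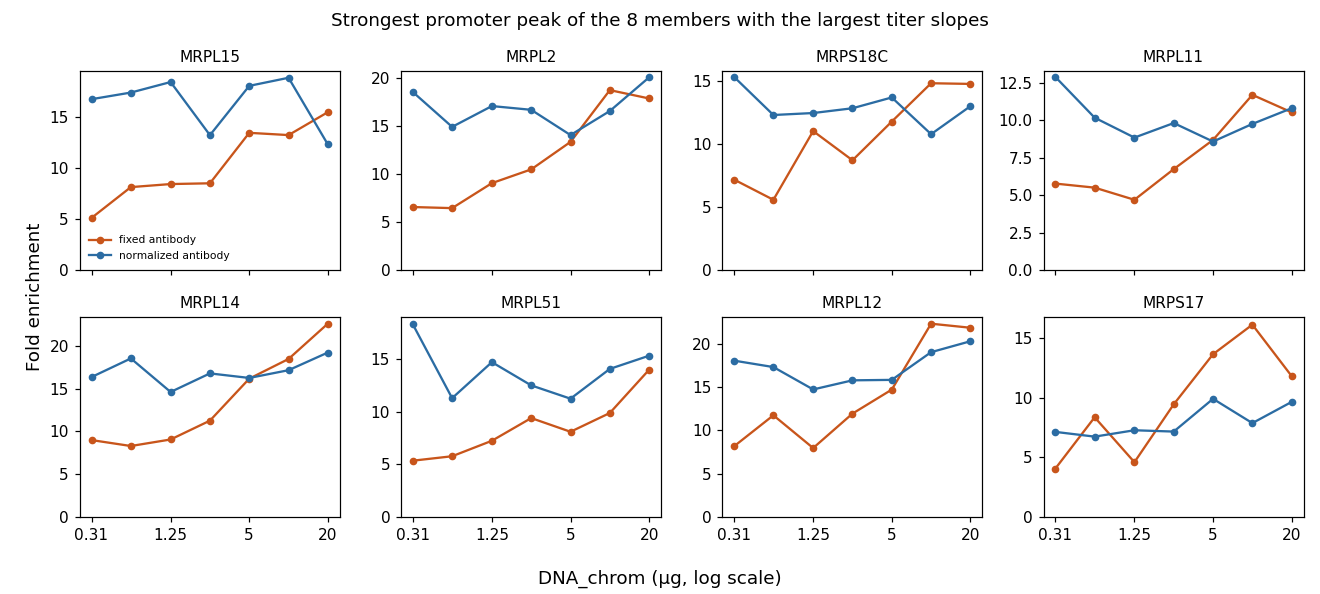
Fold enrichment of the strongest promoter peak against DNA_chrom (µg, log scale) in the fixed arm, where titer falls from left to right, and in the normalized arm, 1 library per point, for the 8 members with the largest titer slopes. MRPL15 rises from 5.1 to 15.5 in the fixed arm, and MRPS17 exceeds its normalized values at 2.5 µg and above.

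The slope over DNA_chrom at constant titer was small. Its median was 0.03 per doubling of DNA_chrom in the members and 0.04 in all genes, and it was positive for 61 of 74 members. In limma 0 members and 6 of 10176 genes (0.059%) passed, all 6 with higher enrichment at larger amounts. For 6 of 74 members and 1285 of 10176 genes the unadjusted p was under 0.05. The median SE of the slope in members was 0.04, so slopes of this size were not detectable in single genes.

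The arms differed at 5 members after adjustment for titer and DNA_chrom. MRPL1, MRPL13, MRPL48, MRPS18B and MRPS16 were higher in the normalized arm (6.76% of 74 members, against 9.37% of all genes), and 0 members were lower (4.54% of all genes). MRPL1 (chromosome 4, 77862830 to 77952785, plus strand), the protein of the mobile stalk beside the exit site of the ribosome, had 3.9, 4.5, 5.9, 6.7, 5.9, 7.1 and 8.7 in the fixed arm and 13.0, 10.2, 11.9, 20.1, 9.0, 15.6 and 12.8 in the normalized arm. All 7 normalized values were above all 7 fixed values, and the fitted difference was 0.83 ± 0.20 (SE) on the log2 scale (limma, adjusted p = 0.0072). MRPL13 (chromosome 8, 120395437 to 120445150, minus strand) had 3.8 to 8.7 with a median of 6.1 in the fixed arm and 8.6 to 13.1 with a median of 11.8 in the normalized arm. The arms overlapped only in that 10-T1a was above 0.31-T1, and the difference was 0.79 ± 0.19 (limma, adjusted p = 0.0065).

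MRPL48, MRPS18B and MRPS16 had differences of 0.56, 0.55 and 0.53 (limma, adjusted p = 0.035, 0.016 and 0.033). MRPS18B (chromosome 6, 30617840 to 30626392, plus strand) was nearly level over titer, with 10.4, 10.5, 10.4, 10.7, 14.7, 12.0 and 10.9 in the fixed arm and 13.5 to 17.9 with normalized antibody. The summit of its strongest peak was within 1 kb of the TSS in 7 lists and 1493 to 3102 bp upstream in the other 7, and with a window of 1 kb the difference was 0.58 (limma, adjusted p = 0.017). The arm cannot be told apart from its input library at any of these genes. Without 20-T0.5 there were 2 members, 1 higher and 1 lower (6.33% of all genes). Without 20-T1 there were 4, 2 higher and 2 lower (8.15%), and without 10-T1b 3, all higher (10.7%). MRPL1 passed under every alternative, whereas MRPL13 had an adjusted p of 0.065 without 20-T0.5. Centring each list left MRPS16 and MRPL48 at adjusted p = 0.053 and 0.066 in limma. With it 5 members passed (6.76%), 3 of them higher and 2 lower, against 14.5% of all genes.

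The length covered by called peaks around the TSS also fell with titer. Among 75 members with a mean of at least 0.5 kb covered by peaks within 5 kb of the TSS, the slope of covered length over titer was negative for 65, with a median of -0.16 kb per doubling. It passed for 7 members (9.33%), all lower at higher titer, against 10.5% of 10748 genes, and 0 were higher (0.158% of genes). These were MRPL35, MRPL12, MRPS21, MRPS16, MRPL38, MRPL10 and MRPL4.

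MRPS21 (chromosome 1, 150293861 to 150308979, plus strand) had 0.91, 2.10, 2.76, 4.38, 4.33, 5.01 and 4.26 kb covered in the fixed arm and 4.94 to 6.29 kb in the normalized arm. Its slope was -0.59 ± 0.15 kb (limma, adjusted p = 0.024). MRPS16 (chromosome 10, 73248849 to 73252644, minus strand), a gene in which recessive variants cause a respiratory chain disorder, had 2.17, 2.66, 2.43, 2.90, 4.44, 4.84 and 4.87 kb and 4.56 to 5.89 kb. The 5 lists of titer above 1 were below all 7 normalized lists, with a slope of -0.57 ± 0.12 kb (limma, adjusted p = 0.010). MRPL38 (chromosome 17, 75898644 to 75904884, minus strand) had 1.64, 1.64, 2.14, 3.66, 4.32, 4.48 and 4.34 kb and 2.89 to 4.20 kb, so that only the lists of titer 32, 16 and 8 were below the normalized arm. MRPL35 had the largest slope, -0.78 ± 0.14 kb (limma, adjusted p = 0.0063), in a window that holds the IMMT promoter as well, and within 1 kb it was -0.04 kb (limma, adjusted p = 0.13).

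With covered length divided by the mean of its list, 1 member and 227 of 10748 genes passed, 116 of these lower and 111 higher. The count of members also rested on single libraries. It was 1 without 20-T1 (3.5% of all genes), 2 without 0.31-T32 (3.78%), 4 without 0.62-T1 (6.76%) or without 10-T1b (6.82%), and 16 without 0.31-T1 (14.6%), so that the share of all genes moved with it.

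**Figure D5:**
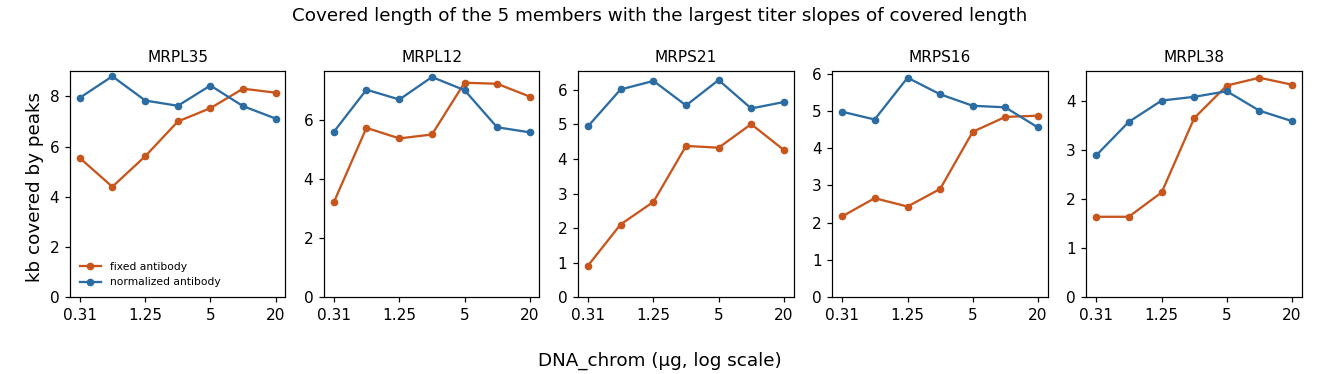
Length covered by peaks within 5 kb of the TSS (kb) against DNA_chrom (µg, log scale) in the fixed and normalized arms, 1 library per point, for the 5 members with the largest titer slopes of covered length. MRPS21 has 0.91 kb at titer 32 and 4.26 kb at titer 0.5, and its normalized values lie between 4.94 and 6.29 kb.

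Many of these genes start close to another gene on the opposite strand. A second protein-coding TSS lay head to head within 1 kb upstream for 23 of 77 members (29.9%), against 10.2% of all genes. The trait is not particular to them. Its share was 35.1% for NDUF genes of respiratory complex I and 34.8% for assembly factors of the mitochondrial ribosome. It was 19.3% for cytosolic ribosomal protein genes and 18.0% for proteasome subunit genes. As examples chosen after the partners were seen, MRPL47 faced NDUFB5 of respiratory complex I at 148 bp, MRPL43 faced the mitochondrial DNA helicase TWNK at 46 bp, MRPS12 faced the mitochondrial seryl-tRNA synthetase SARS2 at 181 bp, and MRPL49 faced FAU, which encodes a protein of the cytosolic ribosome, at 49 bp. Other partners included HELQ, NCAPD2, HIRA and PSMA2. Among the genes described above, MRPL18 faced TCP1 at 210 bp, MRPL13 faced MTBP at 269 bp, MRPL10 faced LRRC46 at 129 bp and MRPS18B faced PPP1R10 at 597 bp. At such promoters a peak cannot be assigned to one of the genes.

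MRPL46 and MRPS11 (chromosome 15, starts at 88467388 and 88467708) face each other at 320 bp, one a large and the other a small subunit gene. The same peak was the strongest of both in 14 of 14 lists, so they count as 2 genes but as 1 measurement. It had fold enrichments of 5.2, 8.8, 10.1, 9.4, 10.7, 12.5 and 13.5 in the fixed arm and 10.5 to 11.9 in the normalized arm. Its titer slope was -0.19 ± 0.05 (limma, adjusted p = 0.015).

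The strongest peak usually sat beside the TSS. The median summit over the lists was within 600 bp of the TSS for 67 of 74 members (90.5%), against 72.2% of all genes with a peak in all lists. It was downstream for 42 members and upstream for 32. Among the 23 members with a head-to-head partner it was upstream in 14, and among the 51 others it was upstream in 18. The summit was on the same side in all 14 lists for 19 members only. The strongest peak was over 1 kb away in all 14 lists for MRPL24, and for 26 members it was over 1 kb away in some lists and nearer in the others. The latter included MRPL35, MRPS18B and MRPL2, and like MRPL24 each of these also had a peak within 1 kb of its own TSS in 14 lists.

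Both subunits and both classes of origin had similar medians. The large subunit had a median mean percentile of 90.1 and 16 of 48 genes below an adjusted p of 0.05 for the titer slope, and the small subunit had 90 and 11 of 26. Homologues of bacterial proteins had 89.8 and 19 of 45, with a median slope of -0.14, and proteins particular to mitochondrial ribosomes had 90.2 and 8 of 29, with -0.10. Over all genes 36.6% passed towards lower enrichment, and the differences between these groups were not tested. The 5 mitochondrial ribosomal proteins without an MRP symbol, DAP3, PTCD3, CHCHD1, AURKAIP1 and GADD45GIP1, had a peak in all 14 lists, and AURKAIP1 passed with a slope of -0.19.

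Genes that act with the mitochondrial ribosome had peaks in all 14 lists about as often. These were 13 of 13 translation factors, 20 of 22 aminoacyl-tRNA synthetases and related enzymes, 22 of 23 assembly factors and 12 of 12 genes of mitochondrial transcription and RNA handling. The titer slope passed, always towards lower enrichment, for 7 of 13, 8 of 20, 9 of 22 and 4 of 12 of them. Over all genes, 51.8% had a peak in all 14 lists, and 36.6% of those tested passed towards lower enrichment. SARS2, among the synthetases that passed, had the same slope, SE and median fold enrichments as its head-to-head partner MRPS12, so they are not independent. Among the synthetases CARS2 had the highest mean percentile (99.1) and NARS2 the lowest (71.2), and among the factors these were MTRFR (96.4), a rescue factor for stalled ribosomes, and MTFMT (79.8), which formylates the initiator tRNA. Of 9 regulators of mitochondrial gene expression, 8 had a peak in all lists, with mean percentiles from 90.9 for PPARGC1B to 99.1 for ESRRA. PPARGC1A, which encodes the coactivator PGC-1α, had none in any list. The titer slope passed for 5 of the 8, GABPA, GABPB1, YY1, ESRRA and PPRC1.

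Other families of housekeeping complexes gave values of the same order. A peak in all 14 lists was found for 86 of 88 cytosolic ribosomal protein genes, 45 of 50 proteasome subunit genes and 35 of 37 NDUF genes of respiratory complex I, with median mean percentiles of 92.6, 92.4 and 92.6. The titer slope passed for 45.3%, 42.2% and 40.0% of those tested, against 36.5% of the mitochondrial ribosomal protein genes and 36.6% of all genes. Peaks covered a median of 4.18 kb at cytosolic ribosomal protein genes, against 2.64 kb at the mitochondrial ones. Covered length fell with titer for 24 of 86 cytosolic genes (27.9%), against 7 of 75 mitochondrial ones (9.33%) and 10.5% of all genes. These differences between families were not tested.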

How the data were processed

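Peak lists of H3K27ac ChIP-seq in K562 cells were used, 1 for each of 14 ChIP libraries. The authors aligned reads with BWA, called peaks with MACS2 in Partek Flow against the input of each arm, and deposited for each peak a fold enrichment (a ratio) with -log10 p-values and -log10 q-values. The deposited score column was not used. The paper names hg19, whereas the submitters' processing notes name hg38 and the contig names are those of GRCh38, so positions were read as GRCh38.

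The deposited -log10 q-values begin at 1.30, and peaks from 2 upwards were used. The value of a gene was the fold enrichment of the strongest peak overlapping 5 kb on either side of its TSS, on the log2 scale, or the length covered there. Genes were those of RefSeq GRCh38.p14, with the strand from the RefSeq promoter table for 15813 genes and from GENCODE, by identifier or symbol, for 3817. Models were fitted with limma 3.58.1 in R 4.3.3 over all genes with a peak in all 14 lists, or with a mean of at least 0.5 kb covered, and Benjamini-Hochberg adjusted. With 1 library per condition, p-values rest on the scatter around the model with 10 residual degrees of freedom. The functions were tested on simulated data. Python 3.11.15 with pandas 2.3.3 and numpy 2.4.6 was used. Members and lists were chosen with earlier results of these data known. Of the 10 markers of other lineages, 1 is not reported here. Named members were those lacking a peak, the 5 highest and 5 lowest by mean percentile, and up to 8 or 5 per test by slope. Read depth was not used, and intervals from counts were not computed, since the lists hold no reads. Alternatives were stricter q-values, a 1 kb window, centring or scaling by list, a minimum of 10 lists, blocks by amount, the fixed arm alone, other starts and leaving out each library.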

Additional observations from a re-analysis of the deposited data

Results flagged for a closer look

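The slope of promoter peak strength over DNA_chrom differed between the arms for 27 of 74 members, which is the titer term of the model (limma, adjusted over 10176 genes). The enrichment of these members was lower at high titer in the fixed arm, and 36.6% of all genes behaved in the same way. No member passed once each list was centred on its median over the genes tested. With 1 library per condition, no library could be compared with others of its own group.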

How the results depend on the processing

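For promoter peak strength, the titer slope passed for 27 members (36.6% of all genes), for 0 with each list centred on its median over the genes tested (0.108%), for 65 in the fixed arm alone (86.1%), where titer and DNA_chrom cannot be told apart, and for 13 to 28 when leaving out 1 library (22.3% to 36.7%). Other settings gave 25 to 29 members (31.5% to 43.6% of all genes tested in each). At a -log10 q of at least 5 it was 25 of 62 members (40.3%), against 43.6% of genes. The DNA_chrom slope passed for 0 members in every setting run. The arm difference passed for 5 members, for 8 with a window of 1 kb (13.3%) and for 2 to 7 when leaving out 1 library (6.33% to 13.9%). The titer slope of covered length passed for 7 members, for 11 at a -log10 q of at least 5 (12.8%), for 11 with a window of 1 kb (8.88%), for 1 when divided by the mean of the list (2.11%) and for 1 to 16 when leaving out 1 library (3.5% to 14.6%). With each amount of DNA_chrom as a block, the matched fit for this design, 29 members passed for titer (35.2%), 6 for arm (13.5%) and 10 for covered length (10.9%). The number of members with a peak in all 14 lists was 74 in the full lists, 73 at a -log10 q of at least 3, 62 at 5, 73 within 1 kb and 75 with any RefSeq start. Over all 19630 genes it was 10176 at the setting used and 9726 at a -log10 q of at least 3. It was 8250 at 5, 9351 within 1 kb and 10397 with any RefSeq start, so the number of all genes moved as well. No member that passed changed its sign in any setting. The cause of these changes was not tested, apart from the shift that centring removes. The lists hold no reads, so peaks missing at high titer cannot be told apart from peaks below the calling threshold.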
